A study of Mus musculus with 4 samples.

Results

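The genes followed here are 9 members of 4 related groups of kinases and pseudokinases: Pim1, Pim2, Pim3, Sgk1, Sgk3, Plk2, Plk3, Trib1 and Trib2. They were taken by name from a deposited table of 23453 genes, and they were chosen because Pim1, Sgk1 and Trib1 stood far above their controls in this same comparison, so their values are a description and were not tested. The study measured RNA in primary hippocampal neurons of newborn C57BL/6NCrl mice, harvested on day 12 in culture. The AP bursting group (2 libraries) had received 50 µM bicuculline for 4 h. Bicuculline blocks GABA-A receptors, and the loss of inhibition drives bursts of action potentials. The control group (2 libraries) was given DMSO, the solvent, instead, for basal activity. Both groups were grown with B27 supplement and rat serum, and on day 8 the medium was changed to one with insulin, transferrin and sodium selenite, which all 4 libraries therefore share. The series text speaks of 2 experiments on separate cell preparations.

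Pim kinases have no regulatory domain and are active once made, so their activity follows their amount. They promote survival and growth, and in blood cells cytokines induce them through JAK and STAT factors. SGK kinases resemble Akt, need PDK1 and mTORC2 for activation, and control ion channels, transporters and FOXO factors. Sgk1 is a classic target of glucocorticoids and serum. Plk2 and Plk3 are polo-like kinases outside the core mitotic machinery. In neurons Plk2 is known for the loss of the spine protein SPAR after prolonged activity, a form of synaptic scaling. Tribbles proteins carry a kinase fold with little or no catalytic activity and act as scaffolds that bring C/EBP factors to the ubiquitin ligase COP1. In the files the genes are ENSMUSG00000024014 (Pim1, chromosome 17), ENSMUSG00000031155 (Pim2, X), ENSMUSG00000035828 (Pim3, 15), ENSMUSG00000019970 (Sgk1, 10), ENSMUSG00000025915 (Sgk3, 1), ENSMUSG00000021701 (Plk2, 13), ENSMUSG00000028680 (Plk3, 4), ENSMUSG00000032501 (Trib1, 15) and ENSMUSG00000020601 (Trib2, 12).

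The promoter windows of the polo-like pair and of Pim1 are shown first, because the single windows of Plk2 and Plk3 each held more than 1 core of the cyclic AMP response element (CRE), while Pim1 had the largest fold of the members and no match. Each runs from 250 bases before to 50 bases after a RefSeq start site on GRCm38.p6, 5′ to 3′ on the gene's strand, and capitals mark the CRE core TGACG on either strand. The windows are chr13:110394794-110395093 (+ strand) for Plk2, chr4:117133914-117134213 (- strand) for Plk3 and chr17:29490535-29490834 (+ strand) for Pim1.
Plk2: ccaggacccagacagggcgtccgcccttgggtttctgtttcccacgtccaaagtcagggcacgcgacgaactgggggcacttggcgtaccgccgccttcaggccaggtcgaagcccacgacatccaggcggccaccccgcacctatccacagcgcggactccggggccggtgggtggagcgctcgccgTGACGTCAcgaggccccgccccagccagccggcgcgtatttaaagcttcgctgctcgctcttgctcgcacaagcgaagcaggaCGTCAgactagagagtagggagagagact
Plk3: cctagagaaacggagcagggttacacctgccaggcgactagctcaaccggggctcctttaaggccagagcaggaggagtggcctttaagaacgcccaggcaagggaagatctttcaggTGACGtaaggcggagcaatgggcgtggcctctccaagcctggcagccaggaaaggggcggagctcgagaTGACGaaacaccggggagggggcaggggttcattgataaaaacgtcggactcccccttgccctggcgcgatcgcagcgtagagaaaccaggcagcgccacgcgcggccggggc
Pim1: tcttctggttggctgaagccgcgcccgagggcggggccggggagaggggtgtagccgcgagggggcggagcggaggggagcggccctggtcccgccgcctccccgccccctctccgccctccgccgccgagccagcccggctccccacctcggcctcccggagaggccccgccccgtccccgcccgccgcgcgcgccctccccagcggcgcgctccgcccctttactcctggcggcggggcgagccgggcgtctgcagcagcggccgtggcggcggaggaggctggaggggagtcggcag

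The Plk2 window held the full palindrome TGACGTCA, beginning 62 bases before the start site. That palindrome contains the core once on each strand, and a further core on the opposite strand began 21 bases after the start. The Plk3 window held the core at 2 places, beginning 132 and 63 bases before the start, and no full palindrome. Of 32851 RefSeq promoter windows of this length, 1.79% held the palindrome and 20.8% the core. RefSeq windows were matched for 7 of the 9 members, and none for Trib1 and Sgk3, so these could not be searched. No CRE core lay in the windows of Pim1 (both of its windows), Pim2, Pim3 or Trib2. Sgk1 had 6 windows, one per annotated start, of which 1 held the CRE core, 236 bases before its start, and 2 others held TATAAA, 28 and 11 bases before theirs. TATAAA was searched on the gene's strand and occurred in 8.32% of all windows. The AP-1 motif TGANTCA (7.81% of all windows), the CArG box (1.63%) and the early growth response motif GCGGGGGCG (2.91%), searched on both strands, had no match in any window of the 7 members with windows. These are matches of letters in short windows and say nothing about binding.

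The table gives, for each gene, a mean of normalized reads per group, meaning reads scaled by the authors' size factor of each library. Because a mean of whole reads in 2 libraries can be taken apart again, the reads of each library were worked out, and all 9 members gave a single solution in both groups. Each group has 1 deep and 1 shallow library. The genes with a single solution held 25268441 and 13046374 reads in the deep and the shallow AP bursting library, and 20954659 and 13337809 reads in the deep and the shallow control library. They cover 81.7% of the AP bursting signal and 70.2% of the control signal. Libraries of like depth resembled each other across treatments (r = 0.962 for the deep and 0.936 for the shallow ones, over 13648 genes of 4 libraries) more than libraries of the same treatment did (r = 0.873 within AP bursting, 0.906 within control). For this reason the deep libraries are set against each other as a pair, and the shallow ones as another. No label gives this pairing. Deep and shallow values therefore also carry any difference between preparations.

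By the authors' deposited table, Pim1, Trib1, Sgk1 and Plk2, 4 of the 9 members, passed an adjusted p of 0.05 as higher after AP bursting, where 0.610% of all genes did, and 0 of 9 passed as lower. Of the members, Plk2 (fold 4.15, adjusted p = 0.0245) was the nearest inside that threshold and Plk3 (fold 3.67, adjusted p = 0.215) the next outside, well away from it, by the authors' deposited table. By library, 7 of the 9 had both AP bursting values above both control values, against 12.6% of the 20226 resolved genes with a mean of at least 1. None of the 9 lay below, against 11.7% of those genes. As the members were picked on this contrast, nothing is read from these shares. In bulk RNA, more cells of a type and more RNA per cell cannot be told apart. The median log2 fold of the 9 was 1.88, against 0.01 over 20517 genes.

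**Figure D1:**
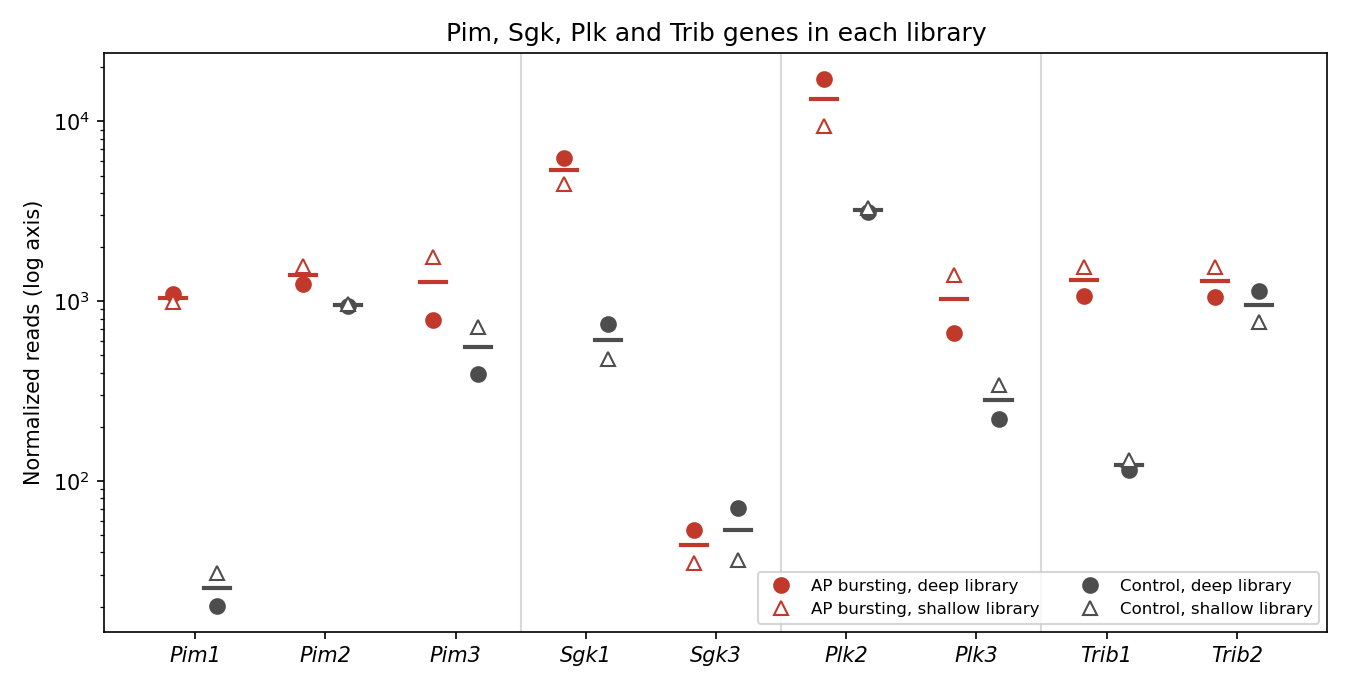
Normalized reads (log axis) of the 9 members in each library, AP bursting in red on the left and control in grey on the right of each gene. Filled circles are deep libraries, open triangles shallow ones, and bars the deposited group means. Pim1 lies near 1039 after AP bursting against 25.4 in control, while the libraries of Sgk3 and Trib2 overlap between groups.

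Pim1, the family member best known as a gene induced by cytokines, had the largest fold of the 9. It had 1093 and 985 normalized reads in the deep and the shallow AP bursting library, against 20.2 and 30.6 in the deep and the shallow control library. These rest on 1388 and 651 raw reads after AP bursting and 27 and 28 in control, so counting error weighs most on the control side. The AP bursting values lay within a narrow band and far above both controls, at 1039 ± 75.8 in AP bursting and 25.4 ± 7.35 in control (SD, n = 2 each). The deposited fold was 40.9, the 21st largest of the 143 genes the authors' deposited table called higher. In the deep pair Pim1 was 54.0-fold higher and in the shallow pair 32.2-fold higher. Of the exonic bases annotated to Pim1, 488 (14.5%) overlap an antisense gene, Gm26885, and the libraries do not keep strand, so reads of these could not be told apart there.

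Pim3, a close relative of Pim1, was also higher in each pair, with a much smaller fold. Its normalized reads were 787 and 1763 in the deep and the shallow AP bursting library, against 394 and 722 in the deep and the shallow control library. The deep AP bursting library exceeded the shallow control library by little, so the groups were apart but close. The deposited fold of 2.29 came with folds of 2.00 for the deep pair and 2.44 for the shallow pair. Its mean was 1275 ± 690.3 in AP bursting and 558 ± 232 in control (SD, n = 2 each). With each library left out in turn the fold lay between 1.41 and 3.24. Pim2, the third family member, had 1239.8 and 1561 normalized reads in the deep and the shallow AP bursting library, against 937 and 963 in the deep and the shallow control library. Its mean was 1400.2 ± 227 in AP bursting and 950.0 ± 17.7 in control (SD, n = 2 each). The groups did not overlap, and its folds were 1.32 for the deep pair and 1.62 for the shallow pair.

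Per length, the make-up of the Pim family differed between the groups. Levels were divided by the length of 1 coding transcript per gene and are given as normalized reads per kb. Pim1 held 30.3% and 19.7% of the family's sum in the deep and the shallow AP bursting library, against 1.19% and 1.46% in the deep and the shallow control library. Pim2 held 45.4% and 41.1% in the deep and the shallow AP bursting library, against 73.0% and 60.4% in the deep and the shallow control library. The share of Pim3 stayed near its control value, at 24.3% and 39.2% in the AP bursting libraries and 25.8% and 38.2% in the controls, deep before shallow. The family's summed level was 2.27 times as high in AP bursting as in control, 1595 against 704 normalized reads per kb. In control, Pim2 and Pim3 made up nearly all of it.

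Sgk1, the kinase induced by glucocorticoids and serum, was high in both AP bursting libraries. It had 6227 and 4478 normalized reads in the deep and the shallow AP bursting library, against 746 and 478 in the deep and the shallow control library. The deep library was the higher one in each group, by 1.39 times in AP bursting and 1.56 times in control, so the change was nearly equal in both pairs. The folds were 8.35 for the deep pair and 9.37 for the shallow pair, and 8.75 in the authors' deposited table. Its mean level was 5352 ± 1237 in AP bursting and 612 ± 189 in control (SD, n = 2 each). Sgk1 spans 117720 bases on chromosome 10. Its most upstream annotated start lies 96488 bases before the next one, and the others lie closer together. The table counts the gene as a whole, so which start the reads came from was not analysed here.

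Sgk3, an SGK kinase with a lipid-binding PX domain that places it at endosomes, did not share this pattern. It had 53.5 and 34.8 normalized reads in the deep and the shallow AP bursting library, against 70.4 and 36.1 in the deep and the shallow control library. Sgk3 averaged 44.2 ± 13.2 in AP bursting and 53.3 ± 24.3 in control (SD, n = 2 each). The groups overlapped, and the spread between libraries was larger than the difference between groups. The deposited fold was 0.829, with 0.760 for the deep pair and 0.965 for the shallow pair, and leaving out single libraries moved it between 0.627 and 1.22. Sgk1 accounted for 99.3% and 99.4% of the sum of both per length in the deep and the shallow AP bursting library, against 92.8% and 94.2% in the deep and the shallow control library.

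Plk2, the polo-like kinase linked to synaptic scaling, was the most abundant member in every library. It had 17157 and 9415 normalized reads in the deep and the shallow AP bursting library, against 3125 and 3283 in the deep and the shallow control library. The controls were nearly equal, whereas the AP bursting libraries differed by 1.82 times. Its fold was therefore 5.49 in the deep pair and 2.87 in the shallow pair, and 4.15 in the authors' deposited table. The means were 13286 ± 5474 in AP bursting and 3204 ± 112 in control (SD, n = 2 each). In reads, the gain of Plk2 (10082 normalized reads) was the largest of the members, ahead of Sgk1 (4740.3).

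Plk3, a stress-responsive relative of Plk2, differed between libraries in the opposite sense. It had 662 and 1396 normalized reads in the deep and the shallow AP bursting library, against 220.3 and 340.2 in the deep and the shallow control library. Here the shallow library was the higher one in both groups, by 2.11 times in AP bursting and 1.54 times in control. The folds were 3.005 for the deep pair and 4.10 for the shallow pair. The means were 1029 ± 519 in AP bursting and 280.2 ± 84.7 in control (SD, n = 2 each). With each library left out in turn the fold lay between 2.36 and 4.98. Of its exons, 84 bases (3.32%) overlap Tctex1d4 on the other strand. Per length Plk2 made up 95.7% and 85.1% of the sum of both genes in the deep and the shallow AP bursting library, against 92.3% and 89.1% in the deep and the shallow control library. The range within AP bursting contained both control values, so the balance of this pair did not differ between groups beyond the spread of libraries.

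Trib1, a Tribbles pseudokinase, had 1074 and 1555 normalized reads in the deep and the shallow AP bursting library, against 115 and 130.2 in the deep and the shallow control library. All AP bursting values were far above the controls, which were close to each other. The fold was 9.30 for the deep pair and 11.9 for the shallow pair, and 10.7 in the authors' deposited table. Its mean was 1314 ± 340.0 in AP bursting and 123 ± 10.4 in control (SD, n = 2 each). Trib2, its paralog, had 1052 and 1547 normalized reads in the deep and the shallow AP bursting library, against 1138 and 770.0 in the deep and the shallow control library. The deep AP bursting library lay below the deep control, and the shallow one above the shallow control, with folds of 0.925 and 2.01. Trib2 averaged 1299 ± 350.2 in AP bursting and 954 ± 259.9 in control (SD, n = 2 each). The groups overlapped, and the deposited fold of 1.36 averages over pairs that differ in sign.

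**Figure D2:**
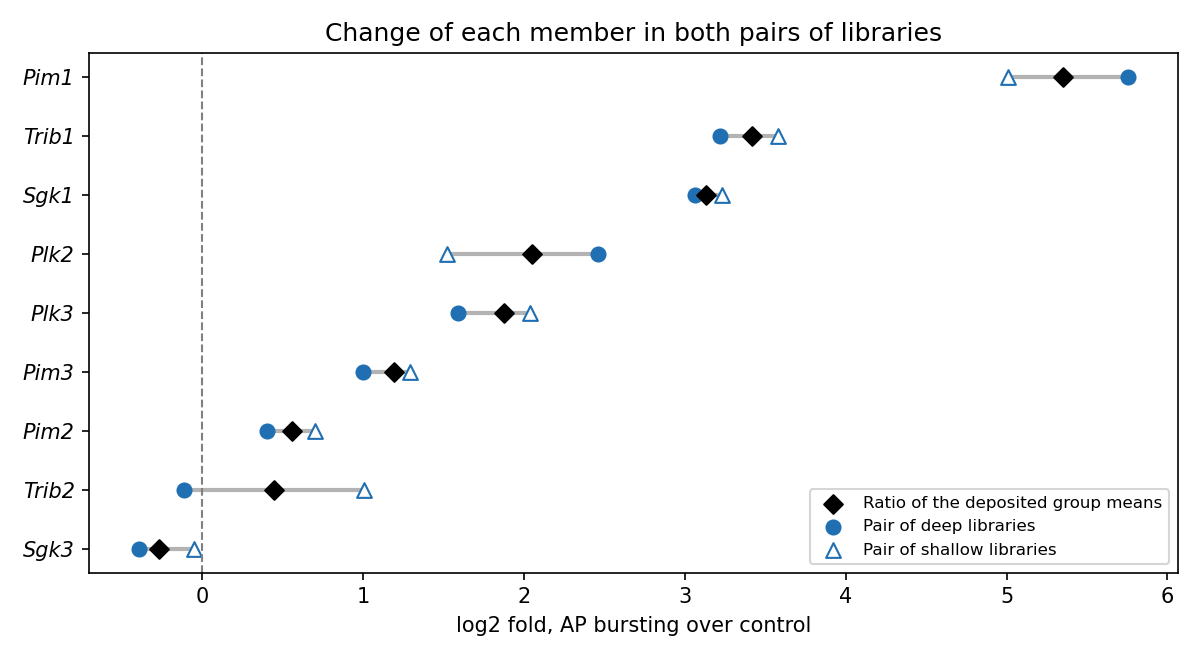
Log2 fold of AP bursting over control for each member (x axis), as the ratio of deposited means (black diamonds) and for the pairs of deep (circles) and shallow (triangles) libraries. The pairs of Sgk1 nearly coincide at 3.06 and 3.23, those of Plk2 lie at 2.46 and 1.52, and those of Trib2 fall on both sides of 0.

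After AP bursting the Tribbles genes stood at about the same level per length. Trib1 held 49.7% and 49.3% of their sum in the deep and the shallow AP bursting library, against 8.95% and 14.1% in the deep and the shallow control library. With the length of all annotated exons in place of 1 transcript, its share of the group means was 41.2% in AP bursting and 8.20% in control. The sum of both was 613 normalized reads per kb in AP bursting and 256 in control.

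**Figure D3:**
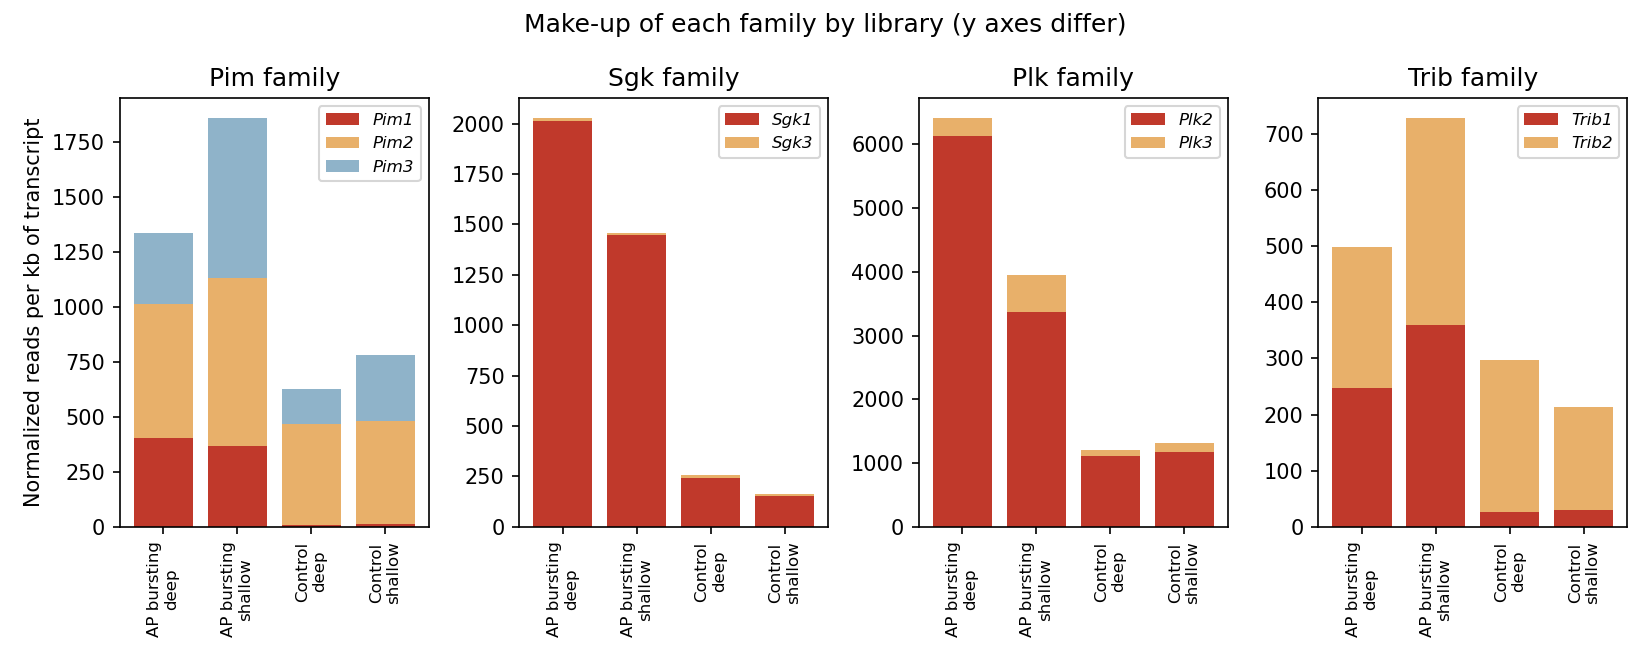
Stacked normalized reads per kb of transcript for the members of each family in the 4 libraries, AP bursting on the left and control on the right, with a separate y axis per family. Pim1 and Trib1 form a thin layer in control and a thick one after AP bursting, while Sgk1 and Plk2 dominate their families in all 4 libraries.

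Ordered by level per length after AP bursting, Plk2 (4745 normalized reads per kb) and Sgk1 (1729) stood apart from the rest. Pim2 (685), Pim3 (525), Plk3 (433), Pim1 (385), Trib2 (309.5) and Trib1 (303) followed, and the libraries of each neighbour in this run overlapped. Sgk3 (11.7) came last and apart. In control Plk2 (1144 normalized reads per kb) also led and Pim2 (465) came next, both apart from the gene after them. Pim3 (229.9), Trib2 (227) and Sgk1 (198) overlapped with their neighbours. Plk3 (118) and Trib1 (28.4) stood apart, and Sgk3 (14.1) and Pim1 (9.43) overlapped at the bottom. Sgk1, Pim1 and Plk3 thus took higher places in AP bursting than in control, Pim1 and Plk3 within the run of overlapping neighbours. With the length of all annotated exons, Pim2 and Pim3 traded places in AP bursting, and Sgk3 and Pim1 in control.

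Of the 13939 genes whose mean over both groups reached 50, Pim1 ranked 10th by deposited fold, Trib1 35th, Sgk1 51st, Plk2 141st and Plk3 169th. Pim3 ranked 391st, Pim2 1332nd and Trib2 1796th, and Sgk3 had a mean of 48.7 and was not ranked.

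**Figure D4:**
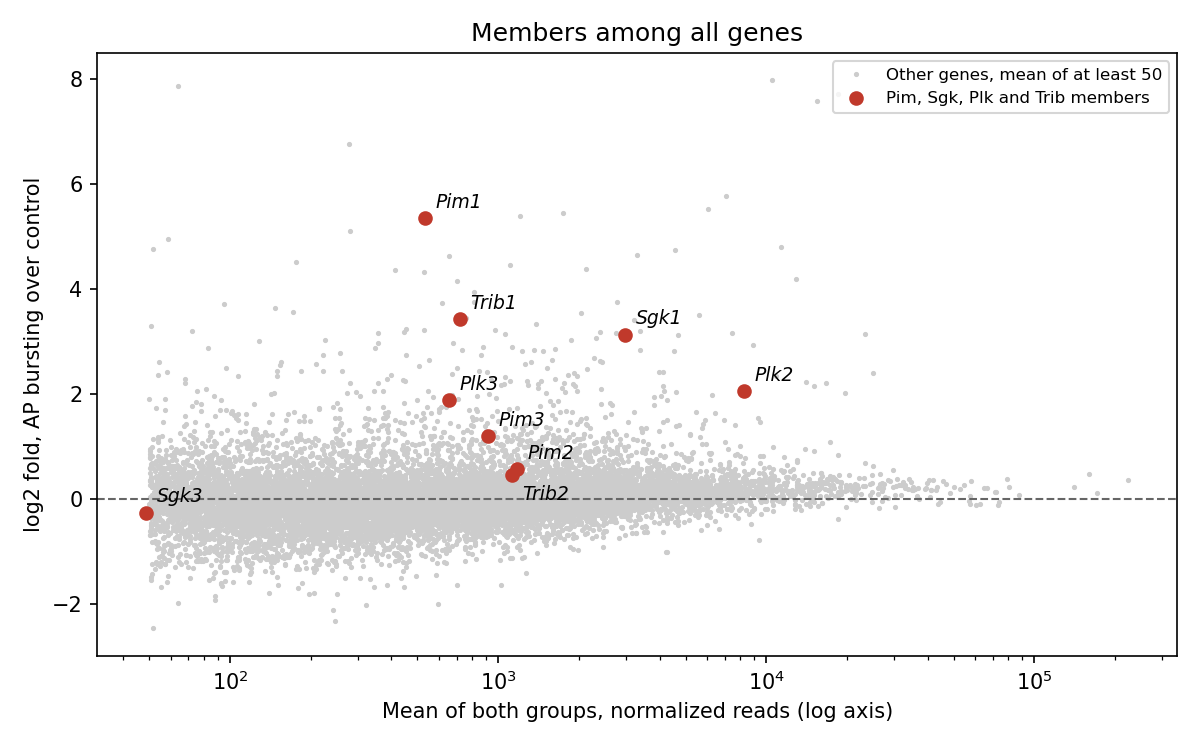
Log2 fold of AP bursting over control (y axis) against the mean of both groups in normalized reads (log x axis) for genes whose mean reached 50, in grey, with the 9 members in red. Pim1 lies at a log2 fold of 5.35 and Plk2, the most abundant member, at 2.05, while Sgk3, with a mean of 48.7, sits below 0.

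Across the 4 libraries, the genes nearest in pattern to each of 4 members were named by the distance between their centred log2 profiles among 13648 resolved genes. The nearest to Pim1 were Arc (distance 0.80), Axud1 (0.86) and Egr2 (0.91). The nearest to Sgk1 were Rel (0.19), Rasgef1b (0.24) and Errfi1 (0.25), all within a smaller distance. Nptx2 (0.31), Gpr3 (0.33) and Dusp4 (0.33) were nearest to Trib1. For Plk2 these were Bves (0.37), Crybg3 (0.46) and AL732620.14-1 (0.48). A distance over 4 libraries rests on few values, among them the group difference, the difference between deep and shallow libraries, and how far the group difference itself varied between the pairs.

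Beyond the promoter windows, the members differ in their transcripts as GENCODE M21 annotates them. Pim1, Pim2, Pim3, Plk2, Plk3 and Trib1 are compact genes spanning 3541 to 8750 bases, where the median over 15697 genes is 24177. Trib2 (25196), Sgk3 (102739) and Sgk1 (117720) are not compact. Trib1 and Trib2 have 3 exons each, the Pim genes 6, and the others 14 to 18. The pentamer ATTTA, a part of AU-rich elements that shorten the life of many short-lived mRNAs, was counted in the 3′ UTR of 1 transcript per gene. Pim1 and Pim3 carried 5 copies each, Trib2 6, Plk3 and Sgk3 4, Sgk1 3, and Pim2 and Plk2 2. Trib1 carried 0. In all 6 of 9 members had at least 3 copies, where 33.3% of 15340 genes with a 3′ UTR did. These counts were not scaled to the length of the 3′ UTR. That length was above the median of 899 bases in all members but Plk2 (620) and Plk3 (332), so nothing is read from the share. Trib2, whose libraries overlapped, had the most copies, and Trib1 had none.

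The remaining genes of these families gave 0 calls of 6, where 0.610% of all genes were called higher. Their median log2 fold was -0.35, but it lies between Sgk2 and Plk1, which had few reads, so no trend is read from it. Plk1 had 16 and 22 raw reads in the deep and the shallow AP bursting library, against 19 and 44 in the controls. The highest fold was that of Stk40, a pseudokinase related to Tribbles. Stk40 had 2666 and 3680 normalized reads in the deep and the shallow AP bursting library, against 782 and 739 in the deep and the shallow control library. The authors' deposited table gives a fold of 4.17 (adjusted p = 0.0517), just outside the threshold. Trib3, a Tribbles gene of the stress response, was higher in the deep library of each group, with 151 and 28.8 in the deep and the shallow AP bursting library against 119 and 36.1 in the deep and the shallow control library. Plk4, which drives centriole duplication, had 78.7 and 50.0 in the deep and the shallow AP bursting library against 133 and 87.5 in the deep and the shallow control library, a fold of 0.584 (adjusted p = 1 by the authors' deposited table). In the authors' deposited table Plk1, the mitotic polo kinase, had deposited means of 22.9 in AP bursting and 31.2 in control, and Plk5 7.96 in AP bursting and 14.6 in control. Sgk2 was near 0, with 3 raw reads over both AP bursting libraries and 4 over both controls.

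The counts of calls in the lists of genes around these kinases stand against the 0.610% called higher over all genes, a share that gives less than 1 gene in a list of their size. The smallest fold of any gene called higher in the authors' deposited table was 4.00. A missing call below that fold therefore does not show that a gene was unchanged. Of 22 Pim inducers and targets, 1 was called higher and 0 lower in the authors' deposited table, and their median log2 fold was 0.20. The gene called was Map3k5, the stress kinase ASK1, which Pim1 is known to phosphorylate. Its fold was 7.04 (adjusted p = 0.000293), with 2149 normalized reads in AP bursting and 305 in control. The cell-cycle inhibitor Cdkn1a had a fold of 3.02 (adjusted p = 0.520) and Jak2, a cytokine receptor kinase, one of 2.14 (adjusted p = 1), both by the authors' deposited table.

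Of 24 genes of SGK activation, hormone receptors and targets, 0 were called in either direction by the authors' deposited table, with a median log2 fold of -0.06. The receptors for corticosteroids, Nr3c1 and Nr3c2, had folds of 0.737 and 0.668, and the SGK target Foxo1 one of 0.664, each with an adjusted p of 1. Foxo1 had 194 and 630 normalized reads in the deep and the shallow AP bursting library, against 572 and 668 in the controls. Its groups overlapped, and most of its difference came from the deep pair. Of 21 Plk regulators and targets, 0 were called, with a median log2 fold of 0.04. Sipa1l2, a relative of SPAR, had a fold of 2.22, and the small GTPases Rap1b and Rap2a folds of 1.70 and 1.66, all at adjusted p = 1 by the authors' deposited table. The gene of SPAR itself, Sipa1l1, had a deposited fold of 1.02, and another relative, Sipa1l3, one of 0.806.

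Of 20 Tribbles partners and targets, 0 were called by the authors' deposited table, and the median log2 fold was 0.10. Cebpb, a C/EBP factor, had a fold of 3.38 (adjusted p = 0.566), while Cebpa had 0.455 and Det1, a COP1 partner, 0.472 (adjusted p = 1 for both). Among 44 related serine/threonine kinases 2 were called higher and 0 lower, with a median log2 fold of 0.25. These were the salt-inducible kinases listed as Snf1lk (Sik1) and Snf1lk2 (Sik2), with folds of 8.12 (adjusted p = 0.000165) and 5.05 (adjusted p = 0.00818) in the authors' deposited table. Dclk3, a doublecortin-like kinase, had a fold of 0.180 (adjusted p = 0.511), the furthest below 1 among the listed kinases with a group mean of at least 50. The authors' deposited table called 0 genes lower among all 23453. limma without a replicate block also called 0 lower and had 668 genes at an unadjusted p below 0.05, whereas with the block it called 1234 lower.

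Markers of glia were detected besides those of neurons, and both were read beside the members. Sums are over normalized reads. The 12 neuronal markers summed to 264079 in AP bursting and 229743 in control by deposited means. Tubb3 and Prox1 were lower in AP bursting, with folds of 0.766 and 0.959, and the other neuronal markers higher. The 8 astrocyte markers summed to 15968 and 22721 in the deep and the shallow AP bursting library, against 14709 and 16943 in the deep and the shallow control library, with folds from 1.07 to 1.35 each. Of the 9 oligodendrocyte lineage markers, the sums were 1524 and 2554 in AP bursting against 1553 and 1887 in control, deep before shallow. The 8 microglial markers were low, with sums of 70.1 and 98.4 in AP bursting against 48.0 and 85.3 in control, deep before shallow. Cx3cr1 and P2ry12 were at 0 in the deep control. By deposited means C1qa was lower in AP bursting and the other microglial markers higher. The 7 endothelial and pericyte markers found summed to 345 and 484 in AP bursting against 317 and 433 in control, deep before shallow. Kcnj8 was at 0 in the deep AP bursting library. By deposited means Pecam1, Kdr, Tek and Kcnj8 were lower in AP bursting and Flt1, Pdgfrb and Rgs5 higher, with a median log2 fold of -0.11. The most abundant, Rgs5, had 254 and 242 in AP bursting against 193 and 243 in control, deep before shallow. The 6 fibroblast markers summed to 1799.5 and 2049.6 in AP bursting against 1570.0 and 1531 in control, deep before shallow. None of these markers was called in the authors' deposited table, while the sums for astrocytes, microglia, endothelium and pericytes, and fibroblasts were higher in AP bursting within each pair. That for the oligodendrocyte lineage was higher in the shallow pair and slightly lower in the deep one. Their part in the values of the members was not tested.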

How the data were processed

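RNA of 4 cultures was sequenced from 1.5 µg of total RNA with libraries that do not keep strand, per the labels' protocols. The submitters' processing notes list DESeq 1.12.0, TopHat 1.2.0 and SAMtools 0.1.19, with build mm9. Which annotation and read counter served is not given in the sources used here. Per the file headers, the authors deposited the mean normalized signal of each group, the ratio (fold) of AP bursting over basal activity, and an adjusted p-value. Every value column of the table that was used is a group value, and 0 per-sample columns were left out. Log2 folds were computed from the deposited means.

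The reads behind each mean were solved with Python 3.11.15, as whole multiples of 1 step per library within 1.05 times the rounding of the 10 printed digits. A single solution was found for 23331 AP bursting and 23171 control values of 23453. The others, all at means of 10014.5 or higher, had several solutions and were left out of library values. Of 2000 values moved at random, 0 AP bursting and 1 control value found a solution, and the solver was tested on simulated means. The moved values came from moderate means only, below the AP bursting mean of every member but Sgk3. This check therefore says nothing about higher means, such as those of Plk2 and of Sgk1 after AP bursting. Size factors implied by the steps differed from median-of-ratios factors by at most 0.188%. limma 3.58.1 in R 4.3.3, tested on simulated data, was run with a variance trend on log2(value + 1) of genes with a mean of at least 1, for counts over all genes only, with Benjamini-Hochberg adjustment. Nothing says how replicate numbers map to the solved libraries. Without the block and with all 4 libraries, limma's p-values measure the spread of 2 libraries per group. With the block they measure how far the group difference varied between the 2 inferred pairs. In each fit limma also drew on the spread of other genes.

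The members and gene lists were chosen with earlier results of these data known. Genes named from a list passed the authors' threshold or, where under 3 passed, had the 3 largest absolute log2 folds at a group mean of at least 50. Sipa1l1 and Sipa1l3 are named in addition, as SPAR and its relative. All members and the other family genes are named. List genes were matched by symbol, older symbol or gene ID, all but Cldn5. Lengths, exons and UTRs come from the coding transcript with the longest coding part in GENCODE M21 (GRCm38), which may not be the annotation used upstream, and promoter windows from RefSeq (GRCm38.p6). No member was tested, and counting intervals were not computed because folds carry the spread between libraries.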

Additional observations from a re-analysis of the deposited data

How the results depend on the processing

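The direction of 8 of the 9 members held in every alternative tried, which were pseudocounts of 1 and 5, scaling to total resolved reads, averaging log2 values over the pairs, and leaving out each library. The exception was Sgk3, whose sign turned in 2 of 8 alternatives. A pseudocount added to both means cannot turn a sign. For the 7 members whose libraries did not overlap, leaving out a library or averaging log2 values cannot turn it either. Trib2 kept its sign here, although its log2 fold was -0.11 in the deep pair and 1.01 in the shallow pair. Over 72 alternatives for the members' log2 folds, 67 moved by less than the spread of libraries and 5 by more. That spread came from the same 2 libraries per group, so leaving 1 out moves a fold by about that spread at most. Nothing is read from these counts. Scaling to total reads moved the median of all genes to -0.16, and gave log2 folds of 5.19 for Pim1, 3.27 for Trib1, 2.99 for Sgk1 and 1.90 for Plk2. With each library left out, the folds lay between 33.9 and 51.4 for Pim1, 8.75 and 12.7 for Trib1, 7.18 and 11.2 for Sgk1, and 2.94 and 5.35 for Plk2.

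Counts over all genes depended strongly on the test. Against 143 higher and 0 lower in the authors' deposited table, limma on the solved libraries called 2 higher without a replicate block. With the replicate block, by the pairing inferred from depth (deep minus shallow differences of both groups correlated at r = 0.878 across 13648 genes), it called 1390 higher and 1234 lower. With that block the counts were 1193 and 913 with a pseudocount of 5, 1126 and 960 at a mean of at least 50, 1360 and 1178 without a filter, and 998 and 1936 with total-read scaling. Without the variance trend, a choice made after seeing the data, limma with the block made 0 calls in either direction (3268 genes at an unadjusted p below 0.05). In leave-one-out fits without the block, in which a group's lone library borrows the spread of the other, 2 to 28 genes were called higher, 28 of them without the deep AP bursting library, and 0 lower (288 to 1121 at an unadjusted p below 0.05). The cause of these differences was not tested. With 2 libraries a group, depth limits Sgk3 and the control values of Pim1 most.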
